A study of Mus musculus with 27 samples.

Results

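The genes described here encode 10 subunits of the Tip60/p400 acetyltransferase complex: the acetyltransferase *Kat5*, the ATPase *Ep400*, the scaffold *Trrap*, the enhancer of polycomb paralogs *Epc1* and *Epc2*, the bromodomain gene *Brd8*, the PHD finger gene *Ing3*, the MRG paralogs *Morf4l1* and *Morf4l2*, and *Dmap1*. They were found by their symbols, each of which matched 1 of the 27080 genes listed in the 3 deposited count tables, and all 10 passed the filter on low counts in every comparison. RNA-seq had been done on J1 mESCs, a mouse embryonic stem cell line grown on gelatin without feeders in medium with serum and leukemia inhibitory factor (LIF). The cells had been infected with lentivirus, selected with puromycin and harvested 8 days after infection. In 3 libraries the virus brought a control vector (shNT). In 3 others it brought shGas41-1 and in 2 more shGas41-2, hairpins that were directed at *Gas41* (*Yeats4*), which is itself a subunit of Tip60/p400 and of the related SRCAP complex. Control-vector J1 cells kept with LIF (EB day 0, 2 libraries) were set beside embryoid bodies (EBs), the aggregates that such cells form without LIF, at day 6 (2 libraries). No group carried an engineered deletion, so every contrast is of a partial loss of *Gas41* or of differentiation, and each group came from 1 cell line. The study's methods speak of biological repeats in general, but the labels do not tie these libraries to separate cultures, so p-values measure the spread between these libraries.

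Tip60/p400 joins an acetyltransferase of the MYST family, which acetylates the tails of histones H4 and H2A, to an ATPase that exchanges H2A for the variant H2A.Z. The other subunits hold both activities together and bring them to nucleosomes through bromo-, chromo- and PHD domains that read acetylated or methylated histones. In mESCs the complex is known for keeping the undifferentiated state and for restraining developmental genes.

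The libraries held between 59224537 and 81524773 counts. *Yeats4* lay between 52.1 and 63.2 CPM (a gene's counts scaled to libraries of equal total) with shNT, between 3.50 and 4.79 CPM with shGas41-1 and between 7.68 and 8.68 CPM with shGas41-2, in accord with the labels. The 6 pluripotency markers *Pou5f1*, *Nanog*, *Sox2*, *Zfp42*, *Esrrb* and *Klf4* summed to between 4368 and 5245 CPM in the libraries of the 4 mESC groups and to between 1191 and 1522 CPM at EB day 6. Of them, *Esrrb* and *Klf4* were lower with shGas41-1 (log2 fold changes of -1.04, FDR 0.0204, and -1.13, FDR 0.00554), and *Klf4* with shGas41-2 (-0.65, FDR 0.0412). The other 4 with shGas41-1 and the other 5 with shGas41-2 were not called. The median log2 fold changes of the 6 markers were -0.11 and -0.04, and the highest were 0.44 and 0.33. Of all genes tested, 7.73% and 3.97% were called lower. The part of these markers in the changes of the subunit genes was not tested. Of the 5 primitive streak and mesoderm markers, *T* and *Mesp1* were below 1 CPM in all mESC libraries, and the list summed to between 1240 and 1788 CPM at EB day 6. Fibroblast markers summed to between 6.32 and 19.8 CPM in mESCs. One library stood apart: in shGas41-1 replicate 3 the median gene with a transcript of at least 8000 bases (639 genes) lay 0.71 on the log2 scale lower, against the median gene with transcripts under 2000 bases (6149 genes), than the mean over libraries, while the other 11 libraries lay between -0.35 and 0.69. For the 10 genes, the log2 fold changes between shGas41-1 and shNT are given with and without this library.

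Both shRNAs match *Yeats4* on the minus strand of chromosome 10 in mm9. They are shown because they define the KD groups, in lower case throughout, since neither shares a run of over 8 bases with a transcript of any of the 10 genes. The target of shGas41-1 lies in the last of the 7 exons, from 116652513 to 116652533, in the untranslated part, and the target of shGas41-2 in the coding sequence of exon 2, from 116659320 to 116659340.
shGas41-1: gtagcattccacgacgttaag
shGas41-2: atcgttaagccaatcgtttat

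Promoter sequence from RefSeq (GRCm38.p6) was matched by symbol for 8 of the 10 genes, with 13 windows in all, and the windows of *Kat5*, *Dmap1* and *Ing3* are printed because these genes had the 3 largest called falls of the 10. Each is the 250 bases before the annotated start, 5′ to 3′ along the gene. Capitals mark 5 motifs, searched on both strands, whose letters were chosen after reading the windows. Of all 32851 such windows, 32.7% held GGGCGG and 33.8% held CCAAT. The share was 6.91% for CCGGAAG, 6.02% for CACGTG and 1.55% for TGACGTCA. The *Kat5* window, the upstream of its 2, lies on the minus strand at chr19:5610095-5610344, the *Dmap1* window on the minus strand at chr4:117682226-117682475, and the *Ing3* window on the plus strand at chr6:21949321-21949570.
Kat5: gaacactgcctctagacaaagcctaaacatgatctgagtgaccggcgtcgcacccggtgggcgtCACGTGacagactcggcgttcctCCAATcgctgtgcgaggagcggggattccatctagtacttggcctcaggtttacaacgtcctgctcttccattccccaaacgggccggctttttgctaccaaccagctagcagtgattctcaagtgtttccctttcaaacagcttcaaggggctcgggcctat
Dmap1: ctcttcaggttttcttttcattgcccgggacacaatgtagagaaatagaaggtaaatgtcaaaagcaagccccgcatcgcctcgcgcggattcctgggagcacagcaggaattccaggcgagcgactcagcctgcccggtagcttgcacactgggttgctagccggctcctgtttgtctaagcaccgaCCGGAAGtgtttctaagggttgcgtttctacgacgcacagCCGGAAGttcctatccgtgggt
Ing3: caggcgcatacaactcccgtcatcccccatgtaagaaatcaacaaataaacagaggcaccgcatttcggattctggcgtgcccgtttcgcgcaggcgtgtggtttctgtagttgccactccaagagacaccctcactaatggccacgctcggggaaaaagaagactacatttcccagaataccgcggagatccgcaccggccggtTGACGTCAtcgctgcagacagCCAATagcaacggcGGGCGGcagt

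The *Kat5* window held CACGTG starting 186 bases and CCAAT starting 163 bases before the start. A window of *Kat5* for a second annotated start, chr19:5609745-5609994, is not printed and held GGGCGG 3 times and none of the other 4 motifs. The *Dmap1* window held CCGGAAG at 62 and at 22 bases before its start. The *Ing3* window held TGACGTCA at 45, CCAAT at 24 and GGGCGG at 10 bases before its start, and a second annotated start of *Ing3* lies 44 bases downstream. The printed windows of *Kat5* and *Dmap1* shared none of the 5 motifs. As the letters were chosen after reading the windows, no conclusion is drawn from this. GGGCGG was the motif of the single windows of *Ep400* (2 matches), *Trrap* (1 match), *Epc2* (1 match) and *Morf4l1* (1 match). These are matches of letters, not measured binding.

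**Figure D1:**
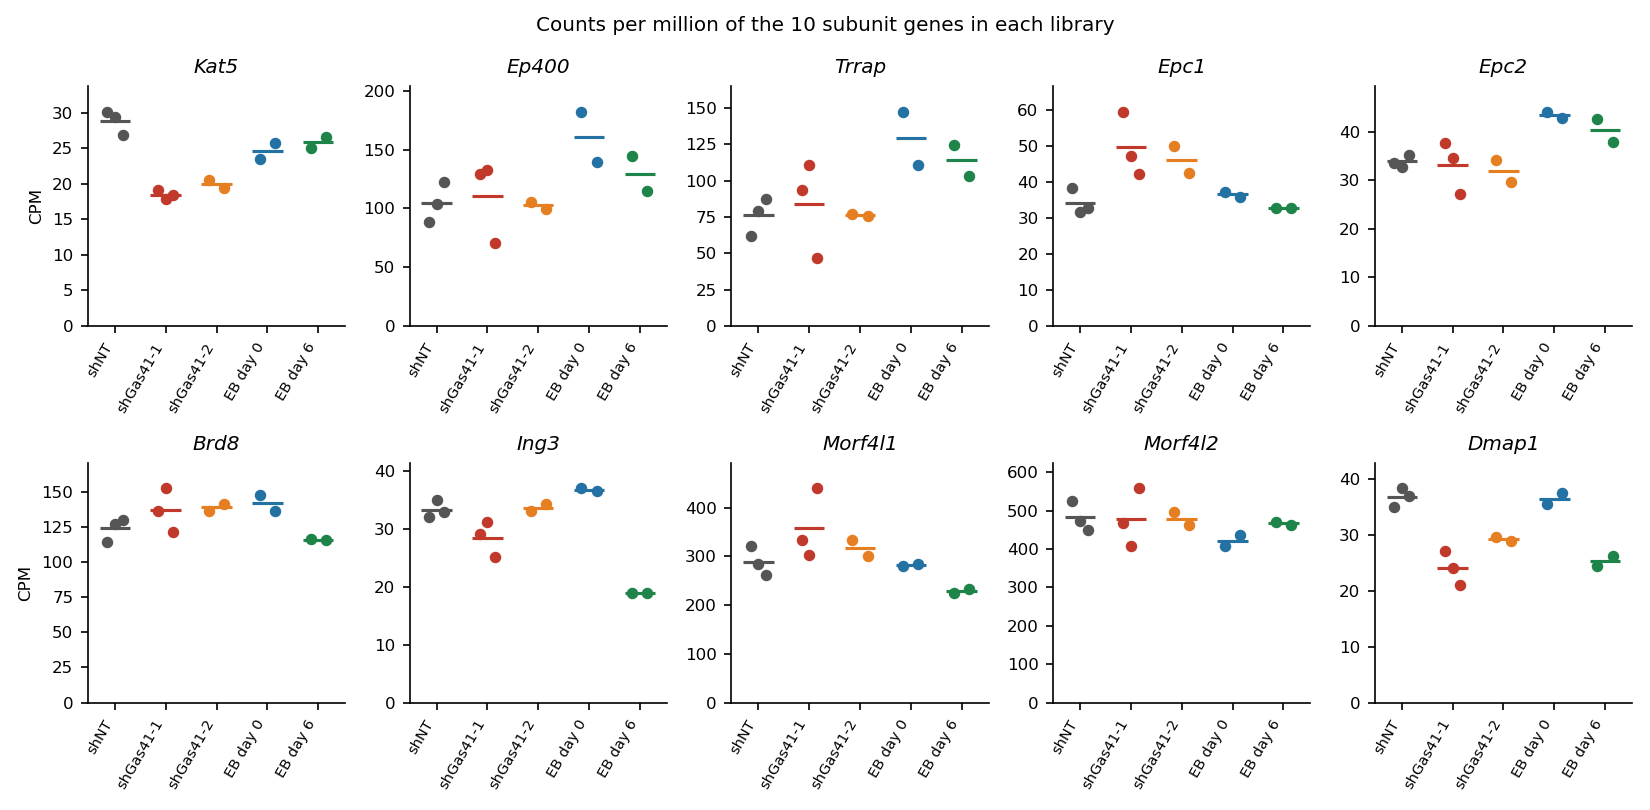
CPM of each of the 10 genes (vertical axes, from 0, with a scale of their own) in each library (points) of the 5 groups, with the group mean as a bar. *Kat5* was lower in all 5 KD libraries than in the 3 shNT libraries, *Epc1* higher in all 5, and *Ing3* lowest at EB day 6.

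With shGas41-1, *Kat5* and *Dmap1* were lower and *Epc1* was higher than with shNT, by edgeR's quasi-likelihood test at an FDR of 0.05 over all 18274 genes tested. These were 3 of the 10 subunit genes, beside 18.5% of all genes tested (10.8% higher and 7.73% lower), and the lowest and highest log2 fold changes of the 10 were -0.56 and 0.61. With shGas41-2, *Kat5* was lower and *Epc1* higher, 2 of the 10 genes, beside 9.91% of all 18405 tested (5.94% higher and 3.97% lower). At EB day 6, *Ing3*, *Dmap1* and *Morf4l1* were lower and *Morf4l2* was higher than at EB day 0, 4 of the 10, beside 58.9% of all 18287 genes tested (30.5% higher and 28.4% lower). No subunit gene changed by the 2-fold that the study also required in any of the 3 comparisons, where 10.3%, 4.82% and 31.3% of all genes did. At an unadjusted p under 0.05, whatever the fold, the counts were 3, 4 and 5 of the 10, and DESeq2 likewise gave 0 at 2-fold. The share of all genes at an unadjusted p under 0.05 is not given, here or below. Such counts are therefore not read as a result about the listed genes. The median log2 fold change of the 10 genes was 0.11 for the first KD, 0.08 for the second and -0.15 in EBs, where the medians over all genes tested were 0.02, -0.01 and -0.0028. In RNA from bulk cultures, fewer cells of a type and less RNA per cell cannot be told apart. The KDs were compared with the same 3 shNT libraries, so their values are given side by side and not as 2 separate tests.

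**Figure D2:**
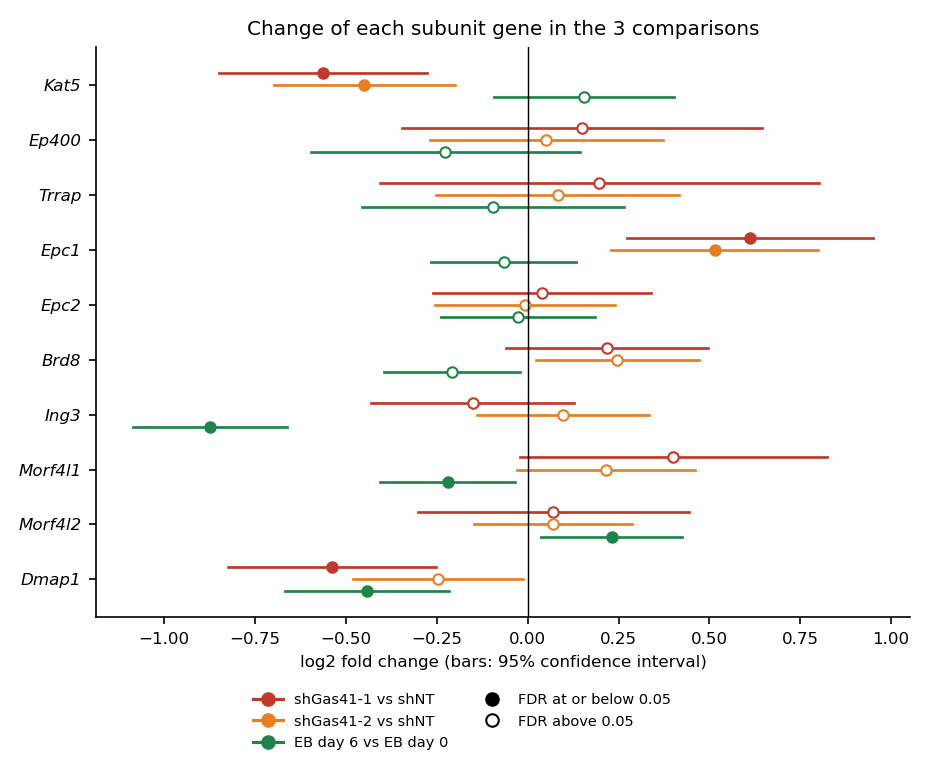
Log2 fold change (horizontal axis) of each of the 10 genes with its 95% confidence interval for shGas41-1 (red) and shGas41-2 (orange) against shNT and for EB day 6 against EB day 0 (green). Filled points passed an FDR of 0.05, and all points lie between -1 and 1, that is within 2-fold.

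*Kat5* encodes Tip60, the catalytic subunit that transfers the acetyl group. Its level was 30.2, 29.4 and 26.9 CPM in the shNT libraries, 19.1, 17.9 and 18.4 CPM with shGas41-1, and 20.5 and 19.4 CPM with shGas41-2. All 5 KD libraries were below all 3 controls. The log2 fold change was -0.56 ± 0.13 (SE) with shGas41-1 (FDR 0.0175), 67.7% of the control level, and -0.45 ± 0.11 with shGas41-2 (FDR 0.0401), 73.3% of the control level, by edgeR's quasi-likelihood test. In the EB series *Kat5* stood at 23.5 and 25.8 CPM at day 0 and at 25.1 and 26.6 CPM at day 6. These ranges overlapped, with a log2 fold change of 0.15 ± 0.10 (FDR 0.236). With 1 library left out, the call with shGas41-1 was lost without shGas41-1 replicate 1 (FDR 0.0723), shNT replicate 1 (FDR 0.0575) or shNT replicate 2 (FDR 0.0859), and held without shGas41-1 replicate 3 (-0.61, FDR 0.0101). With shGas41-2 it was lost without replicate 1 (FDR 0.241) or replicate 2 (FDR 0.260) of that KD, where the lone library is assumed to vary like the others, and without shNT replicate 2 (FDR 0.153), and in 1 fit over 8 libraries it had an FDR of 0.0608. The sign was negative in all alternatives run for both KDs, between -0.64 and -0.41.

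The gene lies on the minus strand of chromosome 19 in mm9, from 5603017 to 5610050, with 14 merged exons of 2356 bases. Of these bases, 18% overlap exons of *Rnaseh2c* on the opposite strand, which encodes a subunit of ribonuclease H2. The study's text gives no strand setting for the counting, so reads from the shared stretch cannot be assigned with certainty. *Rnaseh2c* itself had log2 fold changes of -0.0035 with shGas41-1 (FDR 0.988), -0.07 with shGas41-2 (FDR 0.700) and 0.35 at EB day 6 (FDR 0.0387). Over the 12 libraries, the genes whose log2(CPM + 1) was most like that of *Kat5* among 17426 genes were *Mzt2*, *Ccdc137* and *Zfp799*, with Pearson correlations of 0.98, 0.97 and 0.96. These libraries share conditions and depth, so the correlations are a description only.

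*Ep400* encodes p400, the ATPase that exchanges the histone variant, and *Trrap* a very large scaffold that docks activators and also serves the SAGA acetyltransferase complex. *Ep400* was at 88.2, 103 and 122 CPM with shNT, at 129, 133 and 70.8 CPM with shGas41-1, and at 105 and 99.7 CPM with shGas41-2. *Trrap* was at 62.2, 79.1 and 87.3 CPM with shNT, at 93.3, 111 and 46.8 CPM with shGas41-1, and at 77.2 and 75.5 CPM with shGas41-2. In both genes shGas41-1 replicate 3 was the lowest of all 12 libraries, while the other 2 shGas41-1 libraries lay above every shNT library. The log2 fold changes were 0.15 ± 0.22 (FDR 0.657) for *Ep400* and 0.20 ± 0.27 (FDR 0.630) for *Trrap* with shGas41-1. Neither passed the test, and the intervals, from -0.35 to 0.65 and from -0.41 to 0.80, still hold changes of over 1.5-fold in size. Without shGas41-1 replicate 3 they were 0.35 (FDR 0.110) and 0.45 (FDR 0.0774).

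With shGas41-2 the log2 fold changes were 0.05 ± 0.14 (FDR 0.843) for *Ep400* and 0.08 ± 0.14 (FDR 0.750) for *Trrap*. In the EB series *Ep400* was at 182 and 139 CPM at day 0 and at 144 and 115 CPM at day 6, and *Trrap* at 147 and 111 CPM at day 0 and at 124 and 103 CPM at day 6. The ranges of day 0 and day 6 overlapped in both, with log2 fold changes of -0.23 ± 0.15 (FDR 0.244) and -0.10 ± 0.15 (FDR 0.609). Without EB day 6 replicate 2 the fall of *Ep400* passed the test (-0.38, FDR 0.0174). The longest annotated transcripts are 10909 bases for *Ep400* (chr5:111093392-111199736, minus strand, mm9) and 12479 bases for *Trrap* (chr5:145528961-145620647, plus strand, mm9). The level of long against short transcripts differed between libraries in the same order as these genes within shNT and within shGas41-1, at -0.35, -0.19 and 0.09 in shNT replicates 1 to 3 and at -0.14, -0.03 and -0.71 in shGas41-1 replicates 1 to 3. It was 0.46 and 0.29 in the EB day 0 libraries and 0.69 and 0.48 at day 6. With this length trend removed from each library, a setting chosen after the data were seen, the log2 fold changes at EB day 6 were -0.42 for *Ep400* (FDR 0.00859) and -0.25 for *Trrap* (FDR 0.0419). With shGas41-1 they were then 0.21 (FDR 0.209) and 0.22 (FDR 0.297). *Trrap* was the gene most like *Ep400* over the 12 libraries, with a Pearson correlation of 0.97, followed by the SRCAP ATPase gene *Srcap* (0.97) and *Crtc1* (0.97), over libraries that share this length trend and their conditions.

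**Figure D3:**
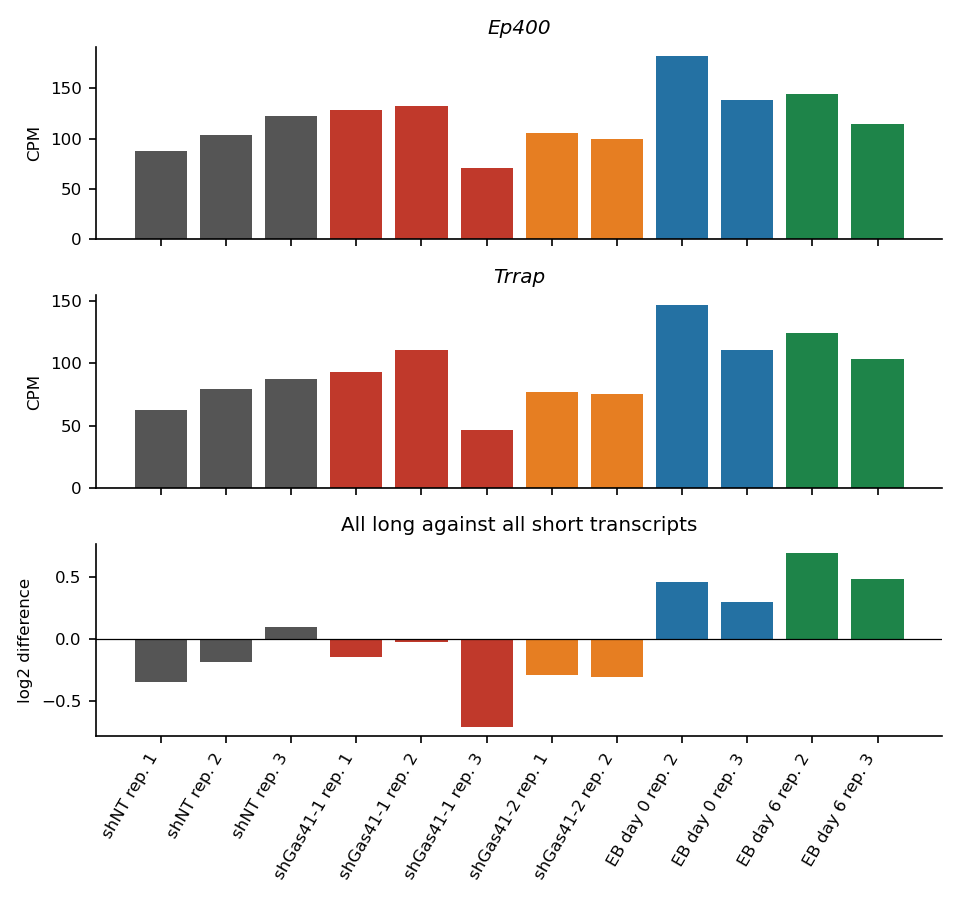
Level of *Ep400* and *Trrap* in CPM and, below, the median log2 deviation of 639 genes with transcripts of at least 8000 bases minus that of 6149 genes with transcripts under 2000 bases, in each of the 12 libraries. The bars of shGas41-1 replicate 3 are the lowest in all 3 panels, and the 4 EB libraries are the highest in the lowest panel.

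*Epc1* and *Epc2* encode paralogous platform subunits that tie the acetyltransferase to the rest of the complex. *Epc1* (chr18:6435949-6516106, minus strand, mm9) was at 38.2, 31.6 and 32.7 CPM with shNT, at 59.4, 47.3 and 42.3 CPM with shGas41-1, and at 50.0 and 42.3 CPM with shGas41-2. All KD libraries were above all controls. The log2 fold change was 0.61 ± 0.15 with shGas41-1 (FDR 0.0238), or 1.53-fold, and 0.51 ± 0.12 with shGas41-2 (FDR 0.0404), or 1.43-fold. In the EB series *Epc1* stood at 37.2 and 35.7 CPM at day 0 and at 32.8 and 32.9 CPM at day 6, with a log2 fold change of -0.07 ± 0.08 (FDR 0.518).

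With 1 library left out, the rise of *Epc1* with shGas41-1 lost its call without shGas41-1 replicate 1 (FDR 0.100), shNT replicate 2 (FDR 0.117) or shNT replicate 3 (FDR 0.0946), and held without shGas41-1 replicate 3 (0.67, FDR 0.0136). With shGas41-2 it was lost without replicate 1 (FDR 0.308) or replicate 2 (FDR 0.137) of that KD and without shNT replicate 2 (FDR 0.152) or replicate 3 (FDR 0.0501), and with scaling by library size alone (FDR 0.0638) or 1 fit over 8 libraries (FDR 0.0866). The change was positive in all alternatives run, between 0.40 and 0.77.

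*Epc2* (chr2:49307006-49407468, plus strand, mm9) was at 33.6, 32.8 and 35.3 CPM with shNT, at 37.6, 34.6 and 27.2 CPM with shGas41-1, and at 34.3 and 29.6 CPM with shGas41-2. The groups overlapped, and the log2 fold changes were 0.04 ± 0.13 (FDR 0.854) and -0.0087 ± 0.11 (FDR 0.969), with intervals from -0.26 to 0.34 and from -0.26 to 0.24. Without shGas41-1 replicate 3 the first was 0.12 (FDR 0.436). From EB day 0 (44.1 and 42.9 CPM) to day 6 (42.6 and 38.0 CPM) the log2 fold change was -0.03 ± 0.09 (FDR 0.816).

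The balance of the paralogs can be read within a library, where the scaling of libraries drops out. The log2 ratio of *Epc2* to *Epc1* CPM was -0.0061 ± 0.16 (SD, n = 3) with shNT, -0.58 ± 0.11 (SD, n = 3) with shGas41-1 and -0.53 ± 0.02 (SD, n = 2) with shGas41-2. The ratios of all 5 KD libraries lay below all 3 controls, with differences of -0.58 and -0.53. Each had p = 0.1 in an exact two-sided permutation test, which is the smallest this design allows (0.15 after Benjamini-Hochberg adjustment over the 6 ratio comparisons). The ratio was 0.25 ± 0.01 (SD, n = 2) at EB day 0 and 0.29 ± 0.12 (SD, n = 2) at day 6, with overlapping values (exact permutation p = 1). The longest coding transcripts of both genes shared no run of over 26 bases, and none of the 50-base windows.

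**Figure D4:**
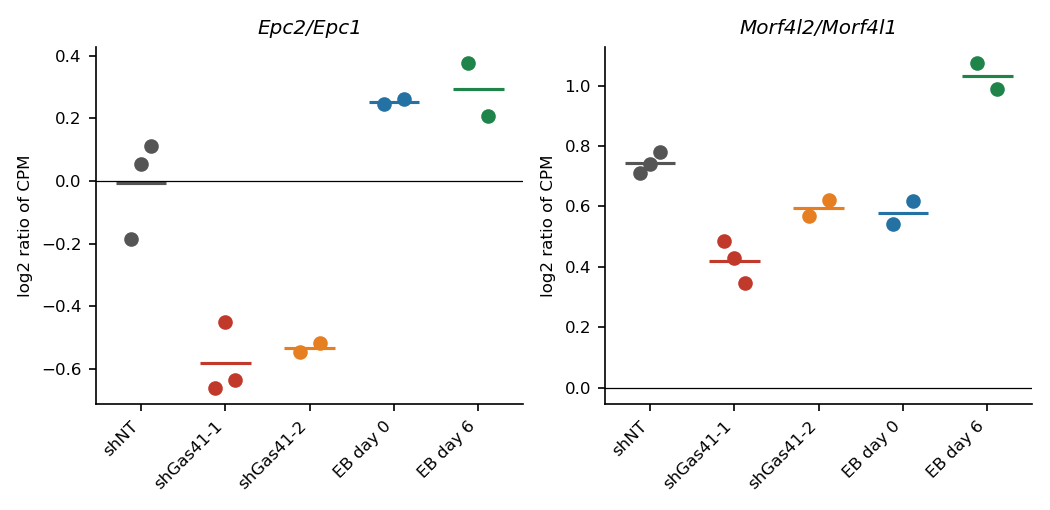
Log2 ratio of CPM (vertical axes) of *Epc2* to *Epc1* (left) and of *Morf4l2* to *Morf4l1* (right) in each library (points), with the group mean as a bar and equal CPM as the line at 0. Both ratios are lower in the KD libraries than in the shNT libraries, and that of the MRG genes is highest at EB day 6.

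*Morf4l1* (MRG15) carries a chromodomain that reads methylated histone H3, and *Morf4l2* (MRGX) is a relative without it. Both also sit in other chromatin complexes. *Morf4l1* was at 322, 283 and 263 CPM with shNT, at 334, 303 and 440 CPM with shGas41-1, and at 334 and 301 CPM with shGas41-2. The KD libraries overlapped the controls, and the log2 fold changes were 0.40 ± 0.19 (FDR 0.162) and 0.22 ± 0.11 (FDR 0.229). The highest value, 440 CPM, came from shGas41-1 replicate 3, without which the log2 fold change was 0.17 (FDR 0.297). *Morf4l2* was at 526, 473 and 450 CPM with shNT, at 467, 408 and 559 CPM with shGas41-1, and at 496 and 463 CPM with shGas41-2, with log2 fold changes of 0.07 ± 0.16 (FDR 0.792) and 0.07 ± 0.09 (FDR 0.674). Without shGas41-1 replicate 3 the first was -0.11 (FDR 0.476), of the opposite sign.

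At EB day 6 these genes changed in opposite directions. *Morf4l1* fell from 280 and 285 CPM at day 0 to 224 and 233 CPM at day 6, a log2 fold change of -0.22 ± 0.08 (FDR 0.0462), while *Morf4l2* rose from 407 and 437 CPM to 472 and 462 CPM, 0.23 ± 0.08 (FDR 0.0464). The values of day 0 and day 6 did not overlap in either gene. Both calls sat close to the threshold: each was lost when any 1 of the 4 EB libraries was left out, with FDRs of up to 0.210 and 0.273, and in 1 fit over 12 libraries (FDR 0.389 and 0.209). The fall of *Morf4l1* was also lost without the filter on low counts (FDR 0.0830), with DESeq2 (FDR 0.0566) and with the length trend removed (FDR 0.128), and the rise of *Morf4l2* without the filter (FDR 0.0541), with scaling by library size alone (FDR 0.148), with RLE scaling (FDR 0.0605) and on halved counts (FDR 0.0536).

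Within libraries, the log2 ratio of *Morf4l2* to *Morf4l1* was 0.58 ± 0.05 (SD, n = 2) at EB day 0 and 1.03 ± 0.06 (SD, n = 2) at day 6, a difference of 0.45 (exact permutation p = 0.333, the smallest that 2 against 2 libraries allow). It was 0.74 ± 0.03 (SD, n = 3) with shNT, 0.42 ± 0.07 (SD, n = 3) with shGas41-1 and 0.60 ± 0.04 (SD, n = 2) with shGas41-2. All KD libraries lay below all shNT libraries, with differences of -0.32 and -0.15, each with an exact permutation p of 0.1. These paralogs shared no run of over 20 bases. Of the 50-base windows of the exons of *Morf4l1*, however, 30.9% also occur in 4 other annotated genes. The gene that held the most was the pseudogene *Gm5564* on chromosome 5. Matches on either strand were counted, so stretches shared with an overlapping gene can be among these windows. How the counting treated reads from them is not given in the sources used here. *Morf4l1* lies at chr9:89986509-90009658 and *Morf4l2* at chrX:133267481-133278229, both on the minus strand in mm9. Genes on the opposite strand overlap 13.2% of the exon bases of *Morf4l1* (*Gm17659*) and 6.16% of those of *Morf4l2* (*BC065397*).

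*Brd8* encodes a bromodomain subunit, and *Ing3* a PHD finger subunit that binds methylated histone H3 at active promoters. *Ing3* (chr6:21899571-21926038, plus strand, mm9) was at 37.1 and 36.5 CPM at EB day 0 and at 19.0 and 18.9 CPM at day 6. The log2 fold change was -0.87 ± 0.09 (FDR 0.000307), which left 54.6% of the day 0 level and was the largest change of the 10 genes in the 3 comparisons. The fall of *Ing3* passed the test in all 12 alternatives run, with FDRs of at most 0.0286 and log2 fold changes between -0.96 and -0.85. With shNT it was at 32.1, 35.1 and 32.9 CPM, with shGas41-1 at 29.1, 31.2 and 25.2 CPM, and with shGas41-2 at 33.1 and 34.3 CPM. The shGas41-1 libraries lay below the shNT libraries and those of shGas41-2 among them, and the log2 fold changes of -0.15 ± 0.12 (FDR 0.412) and 0.10 ± 0.10 (FDR 0.577) did not pass the test. The first was -0.11 without shGas41-1 replicate 3 (FDR 0.479).

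*Brd8* (chr18:34758269-34784255, minus strand, mm9) was at 114, 128 and 130 CPM with shNT, at 137, 153 and 121 CPM with shGas41-1, and at 137 and 142 CPM with shGas41-2. The log2 fold changes were 0.22 ± 0.12 (FDR 0.237) and 0.25 ± 0.10 (FDR 0.143), and neither passed the test, although both shGas41-2 libraries lay above all controls. The first was 0.25 without shGas41-1 replicate 3 (FDR 0.127). With shGas41-2, *Brd8* passed in 2 of the 13 alternatives run, neither of which left a library out. In the EB series *Brd8* stood at 148 and 137 CPM at day 0 and at 117 and 116 CPM at day 6. Its log2 fold change of -0.21 ± 0.08 had an FDR of 0.0569, just above the threshold, and the groups did not overlap. It passed with scaling by library size alone (FDR 0.0168), on halved counts (FDR 0.0457) and with the length trend removed (FDR 0.0116).

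*Dmap1* encodes a SANT domain protein that Tip60/p400 shares with SRCAP. It was at 34.9, 38.3 and 36.8 CPM with shNT, at 27, 24.0 and 20.9 CPM with shGas41-1, and at 29.5 and 28.9 CPM with shGas41-2. All KD libraries were below all controls, and those of shGas41-1 below those of shGas41-2. The log2 fold change was -0.54 ± 0.13 with shGas41-1 (FDR 0.0206), or 68.9% of the control level, and -0.25 ± 0.10 with shGas41-2, which did not pass (FDR 0.157). At EB day 6 *Dmap1* fell from 35.4 and 37.3 CPM to 24.4 and 26.1 CPM, a log2 fold change of -0.44 ± 0.09 (FDR 0.0072), or 73.6% of the day 0 level. Of the 10 genes it was the one called lower both in a KD and in EBs. With 1 library left out, the call with shGas41-1 was lost without shGas41-1 replicate 1 (FDR 0.0525), shNT replicate 2 (FDR 0.103) or shNT replicate 3 (FDR 0.0674), and held without shGas41-1 replicate 3 (-0.49, FDR 0.0204). The call in EBs was lost without EB day 0 replicate 3 (FDR 0.0907). *Dmap1* lies at chr4:117347286-117354878 on the minus strand in mm9, where its exons overlap no other gene.

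Over the libraries, 4 of the 10 genes had levels that did not overlap between shGas41-1 and shNT, 4 between shGas41-2 and shNT and 7 between EB day 6 and day 0. Over all genes tested these shares were 42.2%, 50.2% and 82.7%. The 4 with shGas41-1 were *Kat5*, *Epc1*, *Ing3* and *Dmap1*, and the 4 with shGas41-2 were *Kat5*, *Epc1*, *Brd8* and *Dmap1*.

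The 2 KDs were also compared directly, to ask whether the genes responded differently to the shRNAs. None of the 10 differed at an FDR of 0.05, beside 0% of all 19146 genes tested by edgeR's quasi-likelihood test. DESeq2 called 169 of all genes and none of the 10. At an unadjusted p under 0.05 there was 1, *Dmap1*, which was lower with shGas41-1 by a log2 difference of -0.29 ± 0.12 (FDR 0.676). Its interval ran from -0.56 to -0.01. The libraries of the KDs did not overlap in 3 of the 10 genes (*Kat5*, *Ing3* and *Dmap1*), beside 22.2% of all genes. For *Kat5* the difference was -0.11 (interval from -0.38 to 0.17) and for *Epc1* 0.10 (interval from -0.24 to 0.45), so equal and moderately unequal responses cannot be told apart at this spread. Without shGas41-1 replicate 3 the differences were -0.23 for *Dmap1* (FDR 0.574), -0.15 for *Kat5* (FDR 0.748) and 0.17 for *Epc1* (FDR 0.782), and none of the 10 differed.

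Since the KDs and EB differentiation were measured against separate controls, the difference between the responses could be tested in 1 fit over the 12 libraries. The responses of 3 genes differed in both tests: *Kat5*, *Epc1* and *Ing3*, beside 45.1% of all 19613 genes for shGas41-1 and 41.6% for shGas41-2. For *Kat5* the EB response exceeded that to shGas41-1 by 0.76 ± 0.16 (FDR 0.00219) and that to shGas41-2 by 0.63 ± 0.17 (FDR 0.00952). For *Epc1* the EB response lay below the KD responses, with differences of -0.64 ± 0.20 (FDR 0.0195) and -0.55 ± 0.21 (FDR 0.0486). For *Ing3* the differences were -0.68 ± 0.15 (FDR 0.00341) and -0.94 ± 0.16 (FDR 0.000588). Both tests use the same EB and shNT libraries. *Brd8*, with differences of -0.39 ± 0.15 (FDR 0.0591) and -0.43 ± 0.16 (FDR 0.0507), fell just short. For *Dmap1* they were 0.14 ± 0.16 (FDR 0.529) and -0.17 ± 0.17 (FDR 0.469), with intervals from -0.22 to 0.49 and from -0.54 to 0.21. The shares of all genes given above belong to the fit with all 12 libraries and not to counts with a library left out. For these differences no share of all genes with a library left out is given. Those counts are therefore not read as a result about the 10 genes. Without shGas41-1 replicate 3 the counts were 6 and 5 of the 10. The differences from shGas41-1 were then 0.79 for *Kat5* (FDR 0.000903), -0.71 for *Epc1* (FDR 0.00639), -0.73 for *Ing3* (FDR 0.000708) and -0.43 for *Brd8* (FDR 0.0166). Without EB day 0 replicate 2 the counts were 2 and 1. In these tests *Kat5* passed in all 18 alternatives for shGas41-1 and in 17 of 18 for shGas41-2, with an FDR of 0.0546 without EB day 0 replicate 2, and *Ing3* in all 18 for both. *Epc1* passed in 14 of 18 and in 7 of 18, with FDRs of up to 0.0666 and 0.184. It lost its call when any 1 of the 4 EB libraries was left out, in both tests. For shGas41-2 the call of *Epc1* was also lost without either shGas41-2 library or without shNT replicate 2 or 3. It was lost there in some settings that kept all libraries too, with FDRs of up to 0.0566.

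**Figure D5:**
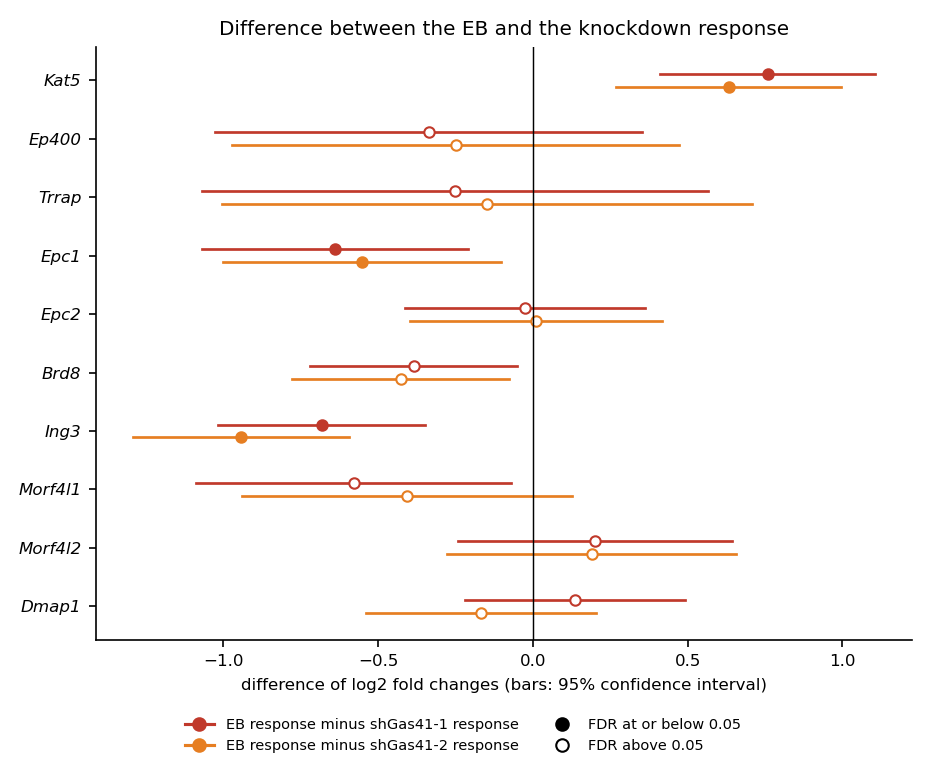
Difference between the log2 fold change at EB day 6 (against EB day 0) and that of each KD (against shNT) for the 10 genes, with 95% confidence intervals, for shGas41-1 (red) and shGas41-2 (orange). Filled points passed an FDR of 0.05: *Kat5* to the right of 0, *Epc1* and *Ing3* to the left, in both.

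Per kilobase of merged exons, the MRG genes stood far above the other 8. With shNT, *Morf4l2* was at 154 ± 12.4 and *Morf4l1* at 146 ± 15.2 CPM per kb (SD, n = 3), and their ranges overlapped. They were followed by *Dmap1* (13.9 ± 0.64), *Kat5* (12.2 ± 0.72), *Brd8* (11.7 ± 0.81), *Epc1* (7.64 ± 0.80), *Ep400* (7.49 ± 1.22), *Epc2* (7.22 ± 0.27), *Ing3* (6.94 ± 0.33) and *Trrap* (5.02 ± 0.84). In this order the neighbours *Kat5* and *Brd8* overlapped, as did *Epc1* with *Ep400*, *Ep400* with *Epc2*, and *Epc2* with *Ing3*, while *Dmap1* lay above *Kat5* and *Trrap* below *Ing3* in all libraries. At EB day 6 *Ing3* was the lowest, at 3.94 ± 0.02 CPM per kb (SD, n = 2), and *Dmap1* was at 9.57 ± 0.47 CPM per kb, below *Kat5* at 11 ± 0.47. The order depends on the length used: per kilobase of the longest transcript, *Brd8* with shNT was at 27.8 ± 1.92 CPM per kb, next after the MRG genes. Its longest transcript has 4468 bases, against 10633 merged exon bases. By the longest transcript, *Dmap1* at EB day 6 lay above *Kat5*, at 13.6 ± 0.66 against 11.5 ± 0.49 CPM per kb (SD, n = 2). With shNT, *Morf4l2* (242 ± 19.5) and *Morf4l1* (146 ± 15.2) then did not overlap (SD, n = 3).

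Of 9 further Tip60/p400 subunit genes (*Ruvbl1*, *Ruvbl2*, *Actl6a*, *Actb*, *Vps72*, *Yeats4*, *Mbtd1*, *Mrgbp* and *Meaf6*), 3 were lower and none higher with shGas41-1, 1 was lower and none higher with shGas41-2, and 3 were lower and 2 higher at EB day 6, beside 18.5%, 9.91% and 58.9% of all genes tested. The targeted *Yeats4* had log2 fold changes of -3.66 ± 0.19 (FDR 0.000375) and -2.71 ± 0.13 (FDR 0.000934) and was the one called with shGas41-2, so no subunit gene of this list other than the target passed there. With shGas41-1 the AAA+ ATPase gene *Ruvbl1* (-0.39 ± 0.11, FDR 0.0487) and *Meaf6* (-0.41 ± 0.12, FDR 0.0438), a small subunit shared with other MYST complexes, were the other 2. In EBs *Ruvbl2* (-0.45 ± 0.09, FDR 0.00438), *Mrgbp* (-0.37 ± 0.09, FDR 0.0134) and *Meaf6* (-0.29 ± 0.10, FDR 0.0366) were lower, and the methyl-lysine reader *Mbtd1* (0.43 ± 0.10, FDR 0.0121) and the H2A.Z chaperone *Vps72* (0.27 ± 0.09, FDR 0.0481) were higher. *Yeats4* in EBs was at 43.6 and 45.8 CPM at day 0 and at 46.1 and 50.2 CPM at day 6 (log2 fold change 0.19 ± 0.09, FDR 0.105).

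The genes particular to SRCAP (*Srcap*, counted under 2 identifiers, *Znhit1* and *Actr6*) and the H2A.Z genes *H2afz* and *H2afv* gave no call in either KD. In EBs *Znhit1* (-0.75 ± 0.11, FDR 0.00129), *Actr6* (-0.57 ± 0.12, FDR 0.00581) and *H2afz* (-0.30 ± 0.08, FDR 0.0168) were lower. These falls stand beside the 28.4% of all genes that were called lower there.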

How the data were processed

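Libraries had been made with a TruSeq RNA kit and read on a NextSeq 500. According to the study's methods and the labels, the authors mapped reads to mm9 with TopHat2 2.0.10, counted them per gene with HTSeq and deposited whole-number counts without normalization. The deposited log2 fold changes, p-values and FDR columns hold the authors' own edgeR comparisons and were not used. The EB control columns, headed ESC, were read as EB day 0. ChIP-seq libraries were not analysed here.

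Counts were tested here with edgeR 4.0.16 in R 4.3.3. Low genes were removed with filterByExpr at its defaults of 10 for the minimum count and 15 for the total, TMM set the scaling factors and the quasi-likelihood test gave the p-values, with Benjamini-Hochberg adjustment over all genes tested (FDR). CPM used the library totals. The fit of each comparison used its own libraries, the direct comparison of the KDs 8 and the differences between responses 12. SEs are the log2 fold change over the root of F. The test was tested on simulated data. Exon lengths, positions and overlaps came from GENCODE vM1 (mm9). Alternatives were no filter, library size alone, RLE, DESeq2 1.42.0, a replicate block, halved counts, pooled fits, other FDR thresholds, glmTreat, and leaving out each library. The length-trend offset and the fit without 2 libraries were chosen after the data were seen. The 10 genes and all lists were chosen with earlier results of these data known. Named genes were all 10 members and, from the other lists, up to 3 called genes with the lowest FDR or any gene of lists of at most 10. Markers named singly were chosen after their values were seen. Depths of 59224537 to 81524773 counts put every member far above the counting floor of 3 counts, and intervals cover these libraries only.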

Additional observations from a re-analysis of the deposited data

How the results depend on the processing

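Alternatives moved the number of subunit genes called, which rests on changes of under 2-fold, while the count at 2-fold stayed at 0 in the 3 comparisons under every alternative run. With shGas41-1 the count of 3 fell to 0 at an FDR of 0.01 and lay between 0 and 3 with 1 library left out. With shGas41-2 the count of 2 became 1 with scaling by library size alone, 0 in 1 fit over 8 libraries and 0 at an FDR of 0.01, and lay between 0 and 2 with 1 library left out. In EBs the count of 4 became 2 without the filter on low counts, 2 in 1 fit over 12 libraries and 2 at an FDR of 0.01, and lay between 1 and 3 with 1 library left out. For the EB response minus the KD responses it became 5 with scaling by library size alone (shGas41-1) and lay between 2 and 6 (shGas41-1) and between 1 and 5 (shGas41-2) with 1 library left out. Over all genes, the calls with shGas41-1 went from 3383 to 1116 and with shGas41-2 from 1824 to 417 at an FDR of 0.01, and with shGas41-2 to 1176 in 1 fit over 8 libraries and 2884 with DESeq2. With 1 library left out these calls ranged from 1441 to 3848 for shGas41-1, from 306 to 4131 for shGas41-2 and from 5066 to 10921 in EBs (10779 with all). Of the direct comparison of the KDs, no alternative called a subunit gene.

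The labels do not say whether replicate numbers mark pairs. Deviations of same-numbered libraries from their group means correlated at -0.16, 0.20 and -0.65 (replicates 1 to 3) for shGas41-1 and shNT. They correlated at 0.52 and 0.46 for shGas41-2 and shNT and at 0.098 in the EB series, so pairing was not settled. Blocking on the replicate numbers, the counts were 0 with shGas41-1, 7 with shGas41-2, 6 in EBs, 0 between the KDs and 3 in both differences between responses. Over all genes they were 1549 of 18274 with shGas41-1 and 7166 of 18405 with shGas41-2. For the other comparisons no count over all genes with the block is given. The blocked counts of subunit genes there are therefore not read as a result about these genes. The FDRs with shGas41-1 were then 0.0913 for *Kat5*, 0.0640 for *Epc1* and 0.0977 for *Dmap1*, and in EBs *Ep400* (-0.22, FDR 0.0252) and *Brd8* (-0.21, FDR 0.0379) joined the calls. With shGas41-2 *Brd8*, *Dmap1* (FDR 0.00394), *Trrap* (FDR 0.0105), *Ep400* (FDR 0.0129) and *Morf4l1* (FDR 0.0173) joined *Kat5* and *Epc1*.

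Direction changed only for genes without a call. With scaling by library size alone, which shifted the median of all genes by -0.08 in the comparisons of each KD with shNT and of EB day 6 with day 0, *Epc2* (-0.033) and *Morf4l2* (-0.016) with shGas41-1 and *Ep400* (-0.029) and *Morf4l2* (-0.012) with shGas41-2 changed sign. *Epc2* with shGas41-2 did so with the block (0.019), on halved counts (0.00013) and with the length trend removed (0.056), and *Morf4l2* with shGas41-1 without the 2 libraries lowest in long transcripts (-0.037), where the count of calls was 3. With 1 library left out, the ranges that crossed 0 were -0.039 to 0.45 for *Trrap*, -0.036 to 0.12 for *Epc2* and -0.11 to 0.20 for *Morf4l2* with shGas41-1, -0.054 to 0.18 for *Ep400*, -0.041 to 0.20 for *Trrap* and -0.10 to 0.077 for *Epc2* with shGas41-2, and -0.28 to 0.11 for *Trrap* and -0.10 to 0.051 for *Epc2* in EBs. The paralog ratios kept their direction under a pseudocount of 1 and with 1 library left out, except *Epc2* to *Epc1* in EBs (-0.045 to 0.12). The differences ranged from -0.66 to -0.52 and from -0.62 to -0.47 for *Epc2* to *Epc1*, and from -0.36 to -0.29, from -0.17 to -0.12 and from 0.41 to 0.50 for *Morf4l2* to *Morf4l1*. The cause of these changes was not tested.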

Other observations

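Lists of relatives of the 10 genes moved as follows. Of the 5 ING genes, *Ing4*, which belongs to the acetyltransferase complex built on *Kat7*, was higher in both KDs. It rose from 210, 218 and 166 CPM with shNT to 553, 517 and 770 CPM with shGas41-1 and to 580 and 629 CPM with shGas41-2, with log2 fold changes of 1.72 ± 0.21 (FDR 0.00274) and 1.69 ± 0.13 (FDR 0.00145) by edgeR's quasi-likelihood test, while the other 4 ING genes, *Ing3* included, gave no call in either KD. At EB day 6 *Ing4* (-0.40 ± 0.10, FDR 0.013) and *Ing5* (-0.42 ± 0.09, FDR 0.00626) were lower together with *Ing3*, and *Ing2*, a subunit of a histone deacetylase complex, was higher (0.92 ± 0.12, FDR 0.00105). The KDs share their shNT libraries. Of all genes tested, 18.5% and 9.91% were called with shGas41-1 and shGas41-2, and 58.9% in EBs (28.4% lower and 30.5% higher).

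Of the 5 MYST acetyltransferase genes, *Kat5* was the one called in the KDs. *Kat6a*, *Kat6b*, *Kat7* and *Kat8* had log2 fold changes between -0.26 and 0.23 there, without a call. In EBs, where 58.9% of all genes tested were called, *Kat5* gave no call, and *Kat6b* (-3.52 ± 0.14, FDR 1.17e-05) and *Kat7* (-0.50 ± 0.08, FDR 0.00247) were lower. Of 21 genes of the SAGA and ATAC acetyltransferase complexes, of which SAGA shares *Trrap*, 0 were called in either KD (2 at an unadjusted p under 0.05 in each), beside 18.5% and 9.91% of all genes tested. In EBs 7 were lower and 5 higher, beside 58.9% of all genes. The 3 with the lowest FDR were *Tada3* (-1.14, FDR 6.51e-05), *Wdr5* (-1.10, FDR 7.41e-05) and the acetyltransferase gene *Kat2b* (-2.68, FDR 0.000195), all lower.

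Some markers of other cell types moved in the KDs. With shGas41-1 *Eomes* (-1.0, FDR 0.0343) and *Thy1* (-1.10, FDR 0.0109) were lower, and with shGas41-2 neither was called (-0.67, FDR 0.107, and -0.12, FDR 0.764). *Eomes* was the 1 of the 5 primitive streak and mesoderm markers called with shGas41-1, where their median log2 fold change was 0.17. With shGas41-2 their median was 0.44, with 0 called (2 at an unadjusted p under 0.05). *Thy1* was the 1 of the 3 tested fibroblast markers called with shGas41-1, where their median was -0.62. Summed primitive endoderm markers were at 3.87 to 4.30 CPM with shNT, 4.90 to 8.58 CPM with shGas41-1 and 5.64 to 5.99 CPM with shGas41-2, with 2 of 5 higher with shGas41-1 (*Gata6*, 1.76, FDR 0.0188, and *Dab2*, 0.75, FDR 0.0477) and 0 called with shGas41-2 (2 at an unadjusted p under 0.05). Summed trophoblast markers were at 23.6 to 29.5, 14.3 to 21.3 and 18.6 to 22.7 CPM, with *Cdx2* higher (2.50, FDR 0.00776) and *Krt8* lower (-0.85, FDR 0.0215) with shGas41-1, and 0 of 5 called with shGas41-2 (1 at an unadjusted p under 0.05). Of all genes tested, 18.5% were called with shGas41-1 (10.8% higher) and 9.91% with shGas41-2 (5.94% higher). At EB day 6 all 5 endoderm markers and all 4 tested trophoblast markers were higher, beside 30.5% of all genes tested. The part of these markers in the changes of the 10 genes was not tested.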
